A study of Mus musculus with 10 samples.

Results

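The expression of 10 genes of the pericentral and Wnt-responsive programme of the liver was followed in livers with and without cachexia: *Glul*, *Oat*, *Slc1a2*, *Rhbg* and *Lhpp*, which mark pericentral hepatocytes, and *Axin2*, *Lgr5*, *Rnf43*, *Znrf3* and *Tbx3*, which respond to Wnt signalling. They were chosen by name, and all of them were found among the 43629 Ensembl genes of the count table and passed the filter on low counts. The livers came from male KL mice, which carry *Lkb1* flox/flox alleles among their engineered alleles on an FVB background and in which lung tumours had been induced in adulthood by intranasal adenovirus with Cre recombinase under the CMV promoter. All 10 mice carried the same engineered alleles and received the virus, so no tumour-free liver was compared. The non-cachectic group (NCACS, n = 5, mice 11 to 15) had lost between 3 and 14% of body weight, and the cachectic group (CACS, n = 5, mice 16 to 20) between 29 and 33%. RNA was taken from whole liver, so position in the lobule was not measured.

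Hepatocytes around the central vein of each liver lobule carry a gene programme of their own. Endothelial cells of the central vein release Wnt ligands and R-spondins, which act through Frizzled, LRP and LGR receptors on neighbouring hepatocytes, stabilize β-catenin and switch on genes through TCF/LEF factors. The innermost hepatocytes use this signal to make the proteins that take up ammonium and glutamate and build glutamine, and the same signal induces its own feedback regulators. Periportal hepatocytes, at the other end of the lobule, run the urea cycle and much of gluconeogenesis.

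Of the 10 genes, 1 fell in CACS livers, beside 1.92% of all genes tested that fell, and 0 rose, beside 1.89%. The gene that fell was *Lgr5*, the R-spondin receptor, at 0.580 times its NCACS level (95% interval 0.438 to 0.768). *Rhbg*, an ammonium transporter, had the largest estimated difference, 0.411 times (0.215 to 0.783), but did not pass the threshold. *Glul*, the glutamine synthetase gene that defines the pericentral layer, was at 0.990 times its NCACS level, with an interval of 0.839 to 1.17. By sign alone, 8 of the 10 genes were lower and 2 higher in CACS livers, and their median log2 fold change was -0.27, whereas 7161 of all 14143 genes tested were lower and the median over them was -0.01. A gene was called when its p in the quasi-likelihood F test of edgeR, adjusted by Benjamini-Hochberg over all genes tested, was under 0.05, and 3.80% of all genes tested were called. At an unadjusted p under 0.05 there were 2 of the 10 genes, *Rhbg* and *Lgr5*, beside 21.6% of all genes tested. In whole liver, fewer pericentral cells and less RNA per cell cannot be told apart.

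**Figure D1:**
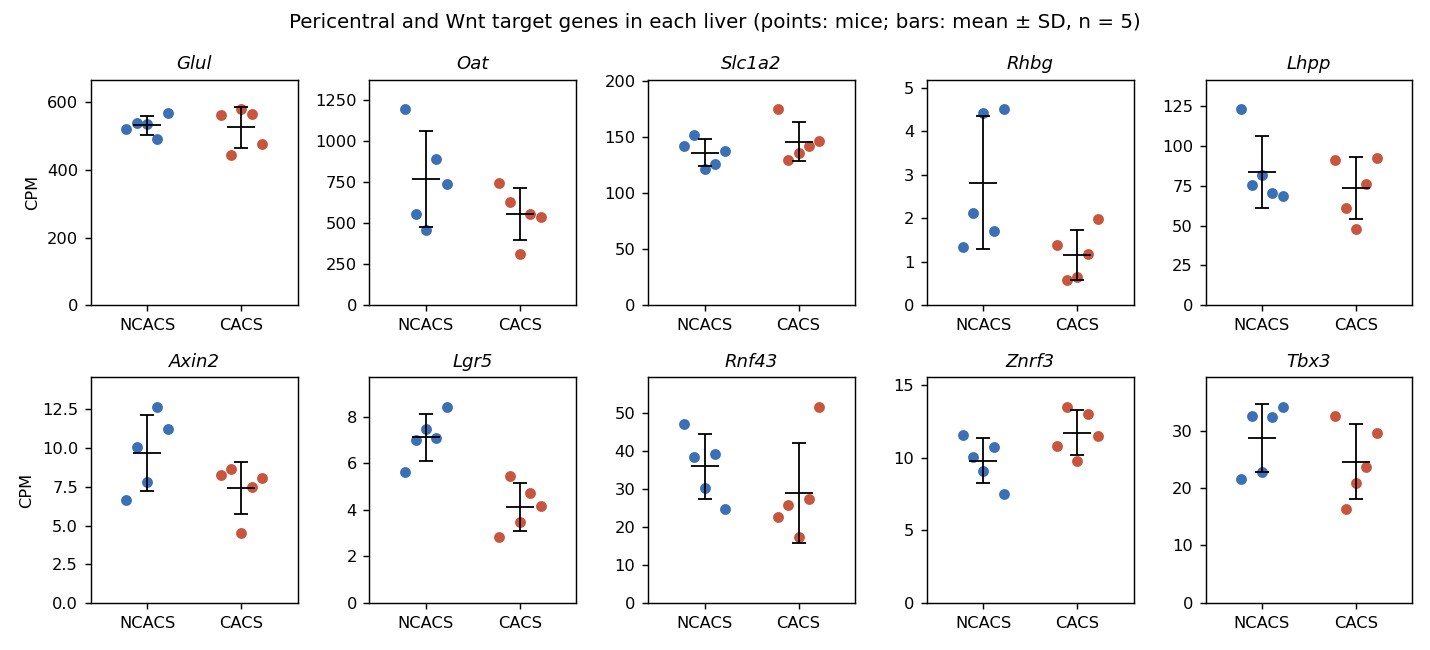
TMM-normalized level (CPM, counts per 1000000 after scaling, linear axis from 0) of each of the 10 genes in the 5 NCACS and 5 CACS livers, ordered by mouse number within a group, with bars for the mean ± SD. *Lgr5* is the gene whose groups do not overlap, and *Glul* and *Slc1a2* vary least between livers.

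Total counts per liver were between 31945328 and 38306888 in NCACS and between 31459179 and 40746178 in CACS mice. Of 5 hepatocyte markers listed, 4 were found by symbol (*Alb*, *Apoa1*, *Ttr* and *Hnf4a*), with summed levels from 59990 to 107401 CPM in NCACS and from 98435 to 126410 CPM in CACS livers. *Hnf4a*, a hepatocyte transcription factor, rose (log2 fold change 0.50, adjusted p = 0.0435 in edgeR), a call kept in 1 of the 10 fits that each left out a mouse, without CACS mouse 18 (0.0417, against up to 0.0974). Markers of central vein endothelium (*Wnt2*, *Wnt9b*, *Rspo3*, *Kit*, *Thbd*, *Cdh13*) summed to between 11.9 and 15.7 CPM in NCACS and between 16.3 and 20.7 CPM in CACS livers. All 6 had higher estimates, with 1 called, beside 6982 higher and 3.80% called of all 14143 genes tested. The 5 markers of sinusoidal endothelium (*Stab2*, *Pecam1*, *Clec4g*, *Lyve1*, *Kdr*) summed to 120 to 162 CPM in NCACS and 152 to 198 CPM in CACS livers. All 5 had higher estimates, with 0 called, beside the same shares of all genes tested. The summed level of the 5 Kupffer cell markers was between 144 and 228 CPM in NCACS and between 79.8 and 163 CPM in CACS livers, and the 5 leukocyte markers summed to 8.09 to 17.5 and 5.37 to 11.7 CPM. None of the cell type markers listed was at 0 in all livers, and the part that these cells play in the results was not tested.

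The pericentral marker genes differ widely in abundance. Per length, in RPKM (CPM per kilobase of merged exons), *Oat* was the most abundant in NCACS livers (325 ± 124 RPKM, SD, n = 5), followed by *Glul* (160 ± 8.32), *Lhpp* (34.7 ± 9.37) and *Slc1a2* (10.4 ± 0.927). The ranges of these 4 genes over the 5 livers did not overlap. Then came *Rnf43* (5.48 ± 1.32 RPKM) and *Tbx3* (4.33 ± 0.905), *Axin2* (1.76 ± 0.447), *Rhbg* (1.46 ± 0.789) and *Znrf3* (1.24 ± 0.200), with *Lgr5* the lowest (0.693 ± 0.0991). Within this lower part, the ranges of *Rnf43* and *Tbx3* overlapped, as did those of *Axin2*, *Rhbg* and *Znrf3* with each other, and the range of *Lgr5* overlapped that of *Rhbg*. In CACS livers the order of the first 6 was the same, and *Znrf3* (1.48 ± 0.195 RPKM) stood above *Axin2* (1.34 ± 0.304) and *Rhbg* (0.595 ± 0.295).

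**Figure D2:**
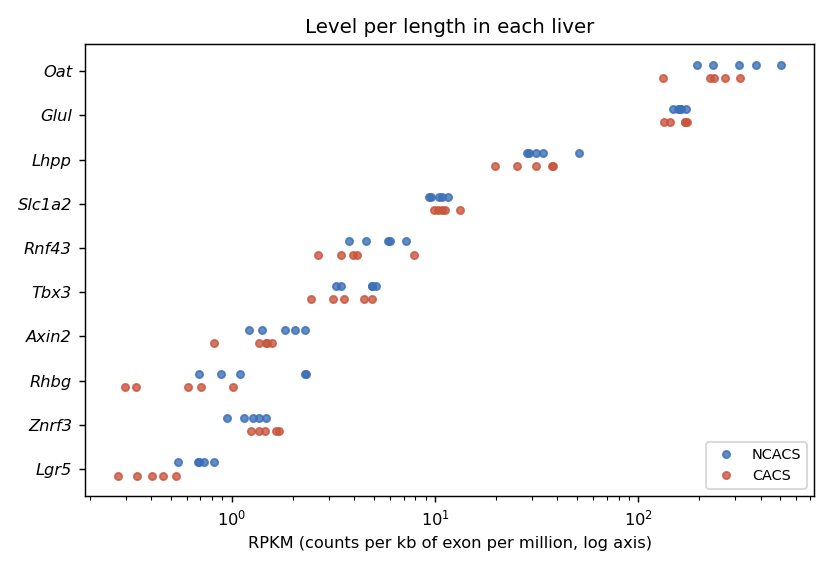
Level per length (RPKM, log axis) of each gene in every liver, NCACS in blue and CACS in red, ordered by the NCACS mean. The genes span from about 325 RPKM for *Oat* to 0.693 RPKM for *Lgr5*.

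*Glul* (ENSMUSG00000026473, chromosome 1 of GRCm38, 153899944 to 153909723, forward strand) encodes the enzyme that joins ammonia to glutamate. Its level was 521, 540, 537, 493 and 568 CPM in NCACS mice 11 to 15 and 564, 445, 580, 567 and 478 CPM in CACS mice 16 to 20. The groups overlapped, and CACS mice 17 and 20 were below every NCACS liver while CACS mouse 18 was the highest of all. *Glul* had the smallest spread of the 10 genes in NCACS livers (coefficient of variation 5.20%) and also in CACS livers (11.6%), where *Slc1a2* was close to it (11.9%). In edgeR the groups differed by -0.01 ± 0.109 (log2 fold change ± SE, adjusted p = 0.956), and the sign changed without NCACS mouse 15 (0.01), CACS mouse 17 (0.04) or CACS mouse 20 (0.02).

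*Slc1a2* (ENSMUSG00000005089, chromosome 2, 102658659 to 102790784, forward strand) encodes a glutamate transporter that supplies pericentral glutamine synthesis. NCACS mice 11 to 15 had 142, 152, 122, 126 and 138 CPM, and CACS mice 16 to 20 had 175, 130, 136, 142 and 147 CPM. Apart from CACS mouse 16, every CACS liver lay within the NCACS range. Its log2 fold change was 0.10 ± 0.104 (SE, adjusted p = 0.608 in edgeR), with a 95% interval of the fold from 0.918 to 1.26, and it was 0.03 without CACS mouse 16.

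*Oat* (ENSMUSG00000030934, chromosome 7, 132557478 to 132576398, reverse strand) encodes ornithine aminotransferase, a mitochondrial enzyme that turns ornithine into a precursor of glutamate. It had 1194, 553, 458, 893 and 737 CPM in NCACS mice 11 to 15 and 744, 631, 314, 554 and 534 CPM in CACS mice 16 to 20. Of the CACS livers, 4 lay within the NCACS range and mouse 18 lay below it. A log2 fold change of -0.47 ± 0.276 (SE) did not pass the threshold (adjusted p = 0.351 in edgeR), and it was -0.25 without NCACS mouse 11.

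*Rhbg* (ENSMUSG00000104445, chromosome 3, 88242874 to 88254709, reverse strand) was counted with between 20 and 146 reads per liver. Its level was 1.33, 2.11, 4.43, 1.72 and 4.51 CPM in NCACS mice 11 to 15 and 1.37, 0.577, 0.652, 1.18 and 1.97 CPM in CACS mice 16 to 20. NCACS mice 13 and 15 were well above the rest, and CACS mice 17, 18 and 19 were below every NCACS liver. In edgeR its log2 fold change of -1.28 ± 0.426 (SE) had an adjusted p of 0.112 (0.0111 before adjustment). Exact permutation of the livers, two-sided, gave p = 0.0476 for *Rhbg*, and 19.97% of all genes tested had an exact p under 0.05. DESeq2 called *Rhbg* (adjusted p = 0.0292, where it called 10% of all genes), and over the other alternatives the adjusted p was between 0.0972, in edgeR without CACS mouse 20, and 0.210, without NCACS mouse 15. All 5 Kupffer cell markers had lower estimates in CACS livers, with 1 called, beside 7161 lower and 3.80% called of all 14143 genes tested. The part of Kupffer cells in the values of *Rhbg* was not tested.

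*Lhpp* (ENSMUSG00000030946, chromosome 7, 132610638 to 132706420, forward strand) encodes a phosphatase that acts on phosphohistidine. NCACS mice 11 to 15 had 123, 75.7, 81.9, 70.3 and 68.4 CPM, and CACS mice 16 to 20 had 91.0, 61.2, 47.7, 76.3 and 92.5 CPM. NCACS mouse 11 stood highest, and CACS mice 17 and 18 were lowest. It differed by -0.19 ± 0.208 (log2 fold change ± SE, adjusted p = 0.648 in edgeR), and by -0.01 without NCACS mouse 11.

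*Lgr5* (ENSMUSG00000020140, chromosome 10, 115450311 to 115587780, reverse strand) encodes a receptor for R-spondins, which raise the sensitivity of a cell to Wnt ligands, and is itself a Wnt target of pericentral hepatocytes. Its level was 5.60, 6.99, 7.46, 7.10 and 8.42 CPM in NCACS mice 11 to 15, from 189 to 281 counts. In CACS mice 16 to 20 it was 2.82, 5.45, 3.49, 4.73 and 4.15 CPM, from 107 to 208 counts. Every CACS liver was below every NCACS liver, although CACS mouse 17 and NCACS mouse 11 were close. Groups that do not overlap were found in 7.07% of all genes tested, with CACS lower in 3.13% and higher in 3.95%. For *Lgr5* edgeR gave a log2 fold change of -0.78 ± 0.185 (SE) with an adjusted p of 0.0408 (0.00122 before adjustment). Exact permutation, two-sided, gave p = 0.00794, the smallest that 252 assignments allow, which groups that do not overlap reach by construction. It therefore adds nothing to the lack of overlap, and 19.97% of all genes tested had an exact p under 0.05. Over the same livers the Kupffer cell marker sums given above reached lower in CACS but overlapped between groups. Those of central vein endothelium were higher in every CACS liver, and those of sinusoidal endothelium reached higher but overlapped. The single markers of central vein endothelium had log2 fold changes from 0.03 (*Rspo3*) to 1.04 (*Cdh13*), with *Thbd* at 0.77. The part of these cells in the values of *Lgr5* was not tested.

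The call of *Lgr5* was near the threshold. It held with DESeq2 (adjusted p = 0.00184), limma-voom (0.0399, where 3.60% of all genes were called), RLE factors and both other filters, and was lost with raw library totals (0.0628 in edgeR). With 1 mouse left out it held without CACS mouse 17 (adjusted p = 0.0298 in edgeR) and was lost without any of the other 9 (0.0577 to 0.0842), while the log2 fold change stayed between -0.90 and -0.67.

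**Figure D3:**
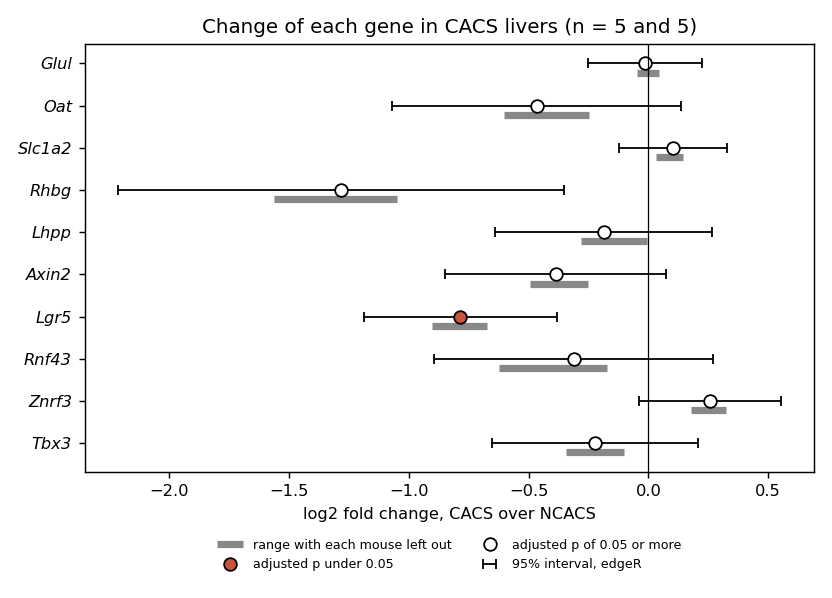
Log2 fold change of CACS over NCACS livers for each gene (points), with the 95% interval from edgeR (black bars) and the range over the 10 fits that each left out a mouse (grey bars). *Lgr5*, the filled point, passed the adjusted threshold, and the intervals of *Lgr5* and *Rhbg* lie below 0.

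*Axin2*, *Rnf43* and *Znrf3* are the negative feedback arm of the pathway. *Axin2* (ENSMUSG00000000142, chromosome 11, 108920349 to 108950783, forward strand) encodes a scaffold of the complex that degrades β-catenin, and is widely read as a reporter of Wnt activity. It had 6.67, 10.1, 7.79, 12.7 and 11.3 CPM in NCACS mice 11 to 15 and 8.24, 8.68, 4.50, 7.52 and 8.07 CPM in CACS mice 16 to 20. CACS mouse 18 lay below all other livers, and the other 4 CACS livers were within the NCACS range. This gave a log2 fold change of -0.39 ± 0.210 (SE, adjusted p = 0.310 in edgeR), and of -0.25 without CACS mouse 18.

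*Rnf43* (ENSMUSG00000034177, chromosome 11, 87662722 to 87735539, forward strand) and *Znrf3* (ENSMUSG00000041961, chromosome 11, 5276324 to 5444847, reverse strand) encode related transmembrane ubiquitin ligases that remove Frizzled receptors from the cell surface unless R-spondin and LGR proteins engage them. *Rnf43* was at 47.0, 38.5, 30.2, 39.3 and 24.7 CPM in NCACS mice 11 to 15 and at 22.7, 25.8, 17.4, 27.3 and 51.6 CPM in CACS mice 16 to 20. *Znrf3* was at 11.6, 10.1, 9.11, 10.7 and 7.50 CPM in the NCACS and 10.8, 13.5, 9.78, 13.01 and 11.5 CPM in the CACS livers. CACS mouse 20 had the highest *Rnf43* of all livers and mouse 18 the lowest, whereas *Znrf3* was highest in CACS mice 17 and 19. *Rnf43* differed by -0.31 ± 0.267 (log2 fold change ± SE, adjusted p = 0.536 in edgeR), and by -0.62 without CACS mouse 20. *Znrf3* differed by 0.26 ± 0.136 (adjusted p = 0.301 in edgeR), so neither passed, and the difference between them was not tested.

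*Tbx3* (ENSMUSG00000018604, chromosome 5, 119670669 to 119684724, forward strand) encodes a T-box transcription factor induced by β-catenin in hepatocytes. It was at 21.6, 32.6, 22.8, 32.4 and 34.1 CPM in NCACS mice 11 to 15 and at 32.5, 16.3, 20.9, 23.7 and 29.6 CPM in CACS mice 16 to 20. CACS mice 17 and 18 were below every NCACS liver, and the other 3 CACS livers lay within the NCACS range. *Tbx3* differed by -0.22 ± 0.196 (log2 fold change ± SE, adjusted p = 0.549 in edgeR), by -0.10 without CACS mouse 17 and by -0.34 without CACS mouse 16.

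No liver was lowest or highest for every gene. CACS mouse 18 had the lowest level of 4 of the 10 genes (*Oat*, *Axin2*, *Rnf43* and *Lhpp*) and the highest of *Glul*, CACS mouse 17 had the lowest of 3 (*Glul*, *Rhbg* and *Tbx3*), while NCACS mouse 15 had the highest level of 3 (*Rhbg*, *Lgr5* and *Tbx3*). Profiles over the 10 livers were compared by the root mean square difference of log2 CPM after each gene was centred and divided by its SD. By this measure *Rnf43* and *Lhpp* were the most alike of the 10 genes (0.736 SD), and *Lhpp* ranked 167 among all genes tested in closeness to *Rnf43*. *Lgr5* was closest to *Rhbg* of the 10 genes (0.833 SD), but *Rhbg* ranked only 1168 among all genes tested in closeness to *Lgr5*. Among all genes tested, the profiles nearest to *Glul* were those of *Mtus1* (0.310 SD), *Thada* and *Plet1os*, and to *Lgr5* those of 3110045C21Rik (0.311 SD), *Kcnip4* and *Adrb3*. *Axin2* was nearest to *Orc2* (0.328 SD), *Strn* and *Epm2aip1*, *Tbx3* to *Nudcd2* (0.398 SD) and 9130230N09Rik, *Rnf43* to *Tbc1d13* (0.348 SD), *Tbc1d2b* and *Tkt*, and *Znrf3* to *Fryl* (0.358 SD), *Npr3* and *Hhip*. *Oat* was nearest to *Efemp1* (0.335 SD), *Mrvi1* and *Jph2*, *Slc1a2* to *Sprn* (0.348 SD), *Rhobtb1* and *C1qtnf1*, and *Lhpp* to BC049762 (0.366 SD), *Bbs12* and *Podn*. *Rhbg* was nearest to *Mpeg1* (0.297 SD), *Apol9a* and *Aig1*, and *Mpeg1*, which encodes a pore-forming protein of macrophages, fell in CACS livers (log2 fold change -1.54, adjusted p = 0.0409 in edgeR). Each likeness rests on 10 livers and is a description.

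Promoter sequences were matched from RefSeq (GRCm38.p6) for 5 of the 10 genes, *Glul*, *Slc1a2*, *Oat*, *Rnf43* and *Axin2*, in 6 windows of 250 bases before an annotated start. They were searched on both strands for 4 forms of the core that TCF/LEF factors bind, which differ from each other in the last letters, so that no match counts for more than 1 form. Of 32851 promoter windows of this length, CTTTGAT was held by 3.21%, CTTTGAA by 4.46%, CTTTGTT by 5.03% and CTTTGTA by 3.20%, and any form by 14.8%. Of the 6 windows, 1 held a match, that of *Slc1a2*, with CTTTGAT on the reverse strand beginning 207 bases before the start. The *Slc1a2* window is shown because it holds the match, with the matched letters in capitals, and the *Axin2* window because this gene is the usual reporter of the pathway. The *Slc1a2* window is chr2:102706188-102706437 and that of *Axin2* chr11:108920099-108920348, both on the forward strand and written 5′ to 3′. The *Slc1a2* start used by RefSeq lies inside the gene as GENCODE gives it.
*Slc1a2*: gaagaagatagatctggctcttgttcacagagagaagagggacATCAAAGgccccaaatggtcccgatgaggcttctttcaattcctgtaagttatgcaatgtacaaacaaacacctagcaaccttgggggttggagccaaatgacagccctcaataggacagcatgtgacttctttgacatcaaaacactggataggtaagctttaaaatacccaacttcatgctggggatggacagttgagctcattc
*Axin2*: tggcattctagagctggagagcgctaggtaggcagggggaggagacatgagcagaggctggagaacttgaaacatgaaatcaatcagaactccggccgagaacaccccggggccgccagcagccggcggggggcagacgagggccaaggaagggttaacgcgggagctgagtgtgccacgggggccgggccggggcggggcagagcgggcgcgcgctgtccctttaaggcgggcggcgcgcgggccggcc

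The *Axin2* window is rich in G and C (69.2%) with 24 CG dinucleotides, whereas the *Slc1a2* window has 44.8% G and C and 1 CG. Letters that match a motif are a description of the window, and binding was not measured.

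Other genes with pericentral expression were examined as a list of 30, all of which were tested. In CACS livers 1 rose and 1 fell, beside 1.89% of all genes tested that rose and 1.92% that fell. The median log2 fold change was -0.16 with 16 lower and 14 higher. *Cyp2c29*, a drug-metabolizing cytochrome P450, was between 2354 and 3471 CPM in NCACS and between 1545 and 2110 CPM in CACS livers (log2 fold change -0.63, adjusted p = 0.0425 in edgeR). *Cyp2c37*, of the same family, was between 147 and 279 CPM in NCACS and between 317 and 568 CPM in CACS livers (0.90, adjusted p = 0.0374 in edgeR). Neither gene's groups overlapped, but the family consists of close copies to which reads may be hard to assign, so the single values are uncertain. With each mouse left out, *Cyp2c29* was never past the threshold (adjusted p from 0.0515 to 0.0985 in edgeR), and it was not past it with no filter (0.0681). *Cyp2c37* was past it without NCACS mouse 14 (0.0372) or CACS mouse 17 (0.0454) and lost without any other mouse (adjusted p from 0.0528 to 0.0839 in edgeR). *Aldh1a1*, a retinaldehyde dehydrogenase, had the lowest estimate of the list (-0.83, adjusted p = 0.103 in edgeR). It was called by DESeq2 (adjusted p = 0.0208) and in edgeR without CACS mouse 18 (-1.06, 0.0497), and over all alternatives the adjusted p reached 0.208. *Cyp2e1*, which metabolizes ethanol, was between 6230 and 8859 CPM in NCACS and between 8949 and 11043 CPM in CACS livers (log2 fold change 0.31, adjusted p = 0.268 in edgeR), and was named after its values were seen.

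**Figure D4:**
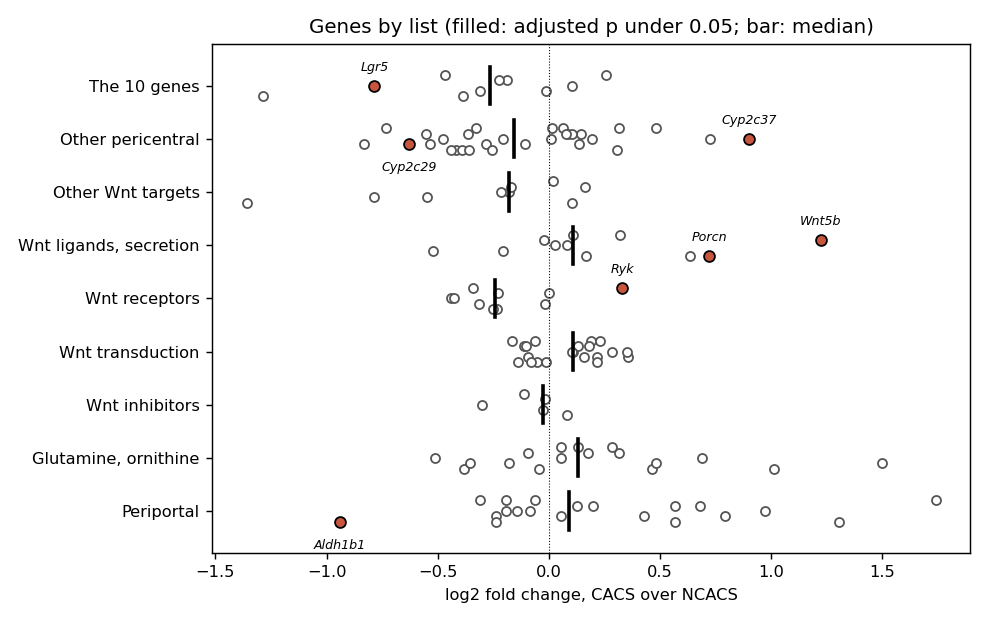
Log2 fold change of CACS over NCACS livers for every tested gene of the 10 genes and of each list, 1 point per gene, filled and named where the adjusted p was under 0.05, with a bar at each list's median. The medians of the lists lie between -0.27 for the 10 genes and 0.13 for the glutamine and ornithine genes.

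Of 11 further Wnt target genes, 9 were tested and 0 passed the threshold in edgeR, and 2 had an unadjusted p under 0.05, beside 21.6% of all genes tested. DESeq2, which called 10% of all genes, called 1 of them, *Ccnd1*, which encodes the cell cycle protein cyclin D1. It had 32.6, 27.1, 21.8, 28.7 and 6.51 CPM in NCACS mice 11 to 15 and 11.7, 7.73, 5.02, 9.21 and 11.8 CPM in CACS mice 16 to 20. NCACS mouse 15 lay within the CACS range and the other 4 NCACS mice above it. *Ccnd1* differed by -1.36 ± 0.366 (log2 fold change ± SE, adjusted p = 0.0611 in edgeR), and by -1.59 without NCACS mouse 15, where it passed (adjusted p = 0.0141 in edgeR, against up to 0.125 with another mouse left out). The highest estimate of the list was that of *Tnfrsf19*, a Wnt-induced receptor (0.16, adjusted p = 0.683 in edgeR), which was 0.01 without CACS mouse 17.

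The machinery that makes, receives and transmits Wnt signals was examined as 66 genes, of which 47 were tested. In CACS livers 3 rose and 0 fell, beside 1.89% of all genes tested that rose and 1.92% that fell. The median log2 fold change was -0.01. The genes that rose were *Porcn*, *Wnt5b* and *Ryk*, of which *Porcn* and *Wnt5b* belong to the 11 tested genes for ligands, R-spondins and secretion and *Ryk* to the 10 tested receptor genes. Of the 10 tested receptor genes, 9 had lower estimates, beside 7161 of all 14143 genes tested, with a median log2 fold change of -0.24. An unadjusted p under 0.05 in edgeR was found for 4 of them, beside 21.6% of all genes tested. These were *Ryk*, which passed the threshold, and *Fzd5*, *Lrp5* (-0.43) and *Lgr4* (-0.31), which were lower and did not pass. Of all 47 tested genes there were 8, with 5 higher and 3 lower. *Lrp5* and *Lgr4* were named after their values were seen. None of the 21 tested genes for signal transduction and none of the 5 tested inhibitors passed in edgeR. At an unadjusted p under 0.05 in edgeR there were 1 and 0 of them, beside 21.6% of all genes tested. DESeq2 called 1 and 0, beside 10% of all genes. Among the transduction genes, the β-catenin gene *Ctnnb1* had the lowest estimate (-0.16, adjusted p = 0.335 in edgeR) and *Dvl2*, a Dishevelled protein, the highest (0.36, adjusted p = 0.319). The secreted inhibitor gene *Frzb* was at -0.30 (adjusted p = 0.602 in edgeR) and *Ctnnbip1*, which encodes a β-catenin binding inhibitor, at 0.08 (adjusted p = 0.824).

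*Porcn* encodes the acyltransferase that attaches the lipid which Wnt proteins need for secretion. It had 4.12, 5.67, 4.36, 4.88 and 4.20 CPM in NCACS mice 11 to 15 and 7.27, 7.65, 7.21, 6.64 and 9.59 CPM in CACS mice 16 to 20, so the groups did not overlap. It rose by a log2 fold change of 0.72 ± 0.142 (SE, adjusted p = 0.0240 in edgeR), and the call was lost only without NCACS mouse 11 (0.0599) among the 10 fits that each left out a mouse.

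*Wnt5b*, a ligand known mainly for signalling without β-catenin, had 4.42, 4.13, 4.98, 3.19 and 3.27 CPM in NCACS mice 11 to 15 and 12.1, 4.17, 10.6, 8.95 and 10.9 CPM in CACS mice 16 to 20. CACS mouse 17 was within the NCACS range and the other 4 CACS mice were above it. The rise was 1.22 ± 0.256 (log2 fold change ± SE, adjusted p = 0.0298 in edgeR), and 1.41 without CACS mouse 17 (0.00329). The call was lost with limma-voom (adjusted p = 0.0590) and in 8 of the 10 fits that each left out a mouse (up to 0.0674 in edgeR), and held in those without NCACS mouse 13 or CACS mouse 17.

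*Ryk*, a receptor-like kinase that binds Wnt ligands, was between 31.2 and 37.4 CPM in NCACS and between 41.5 and 47.0 CPM in CACS livers. The groups did not overlap, and *Ryk* rose by a log2 fold change of 0.33 ± 0.0781 (SE, adjusted p = 0.0413 in edgeR). Of the 10 fits that each left out a mouse, the call held in 1, without NCACS mouse 15 (0.0499), and the others gave an adjusted p from 0.0553 to 0.0845 in edgeR. It was also lost with raw library totals (0.0516) and with no filter (0.0894).

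**Figure D5:**
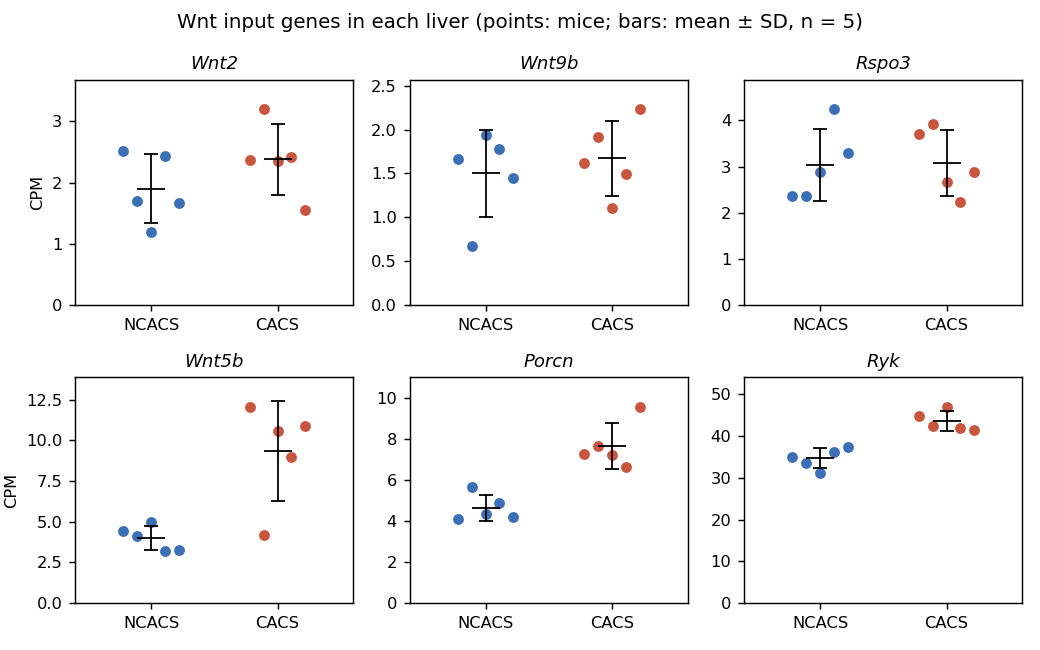
TMM-normalized level (CPM, linear axis from 0) of 6 Wnt input genes in the 5 NCACS and 5 CACS livers, with bars for the mean ± SD. *Wnt2*, *Wnt9b* and *Rspo3* overlap between groups, *Porcn* and *Ryk* do not, and for *Wnt5b* CACS mouse 17 lies with the NCACS livers.

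The ligands that central vein endothelium supplies to hepatocytes were measured at low levels. The summed markers of these cells, which include the ligand genes named next, were higher in every CACS than in every NCACS liver, as given above, and their part in the values of *Porcn*, *Wnt5b* and *Ryk* was not tested. In NCACS and then CACS livers (mean ± SD, n = 5 each), *Wnt2* was at 1.90 ± 0.563 and 2.38 ± 0.585 CPM, *Wnt9b* at 1.50 ± 0.496 and 1.67 ± 0.425 CPM, and the R-spondin gene *Rspo3* at 3.03 ± 0.782 and 3.08 ± 0.714 CPM. Their log2 fold changes were 0.32, 0.16 and 0.03 (adjusted p = 0.486, 0.786 and 0.959 in edgeR). *Rspo1* had the lowest estimate of the ligand genes (-0.52, adjusted p = 0.528 in edgeR), and among the receptors *Fzd5*, a Frizzled, had the lowest (-0.44, adjusted p = 0.158).

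Genes that handle glutamine, ornithine and ammonia beside *Glul*, *Oat*, *Slc1a2* and *Rhbg* were examined as a list of 22, of which 17 were tested. None passed the threshold in edgeR. An unadjusted p under 0.05 was found for 4, beside 21.6% of all genes tested, and DESeq2 called 2, beside 10% of all genes. *Got1*, the cytosolic aspartate aminotransferase, had the highest estimate, with 168, 58.6, 123, 141 and 116 CPM in NCACS mice 11 to 15 and 327, 417, 82.6, 211 and 681 CPM in CACS mice 16 to 20. CACS mouse 18 lay within the NCACS range and the other 4 CACS mice above it. *Got1* differed by 1.50 ± 0.457 (log2 fold change ± SE, adjusted p = 0.0885 in edgeR), and it passed without CACS mouse 18 (1.75, 0.0375). The lowest estimate was that of *Pycr1*, a proline synthesis enzyme (-0.51, adjusted p = 0.594 in edgeR), which was -0.06 without NCACS mouse 13.

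At the periportal end of the lobule, 20 genes were listed and tested. Of these, 0 rose and 1 fell, beside 1.89% of all genes tested that rose and 1.92% that fell. At an unadjusted p under 0.05 there were 7, 6 of them higher and 1 lower, beside 21.6% of all genes tested. The 6 were *Mfsd2a*, *G6pc* (log2 fold change 1.31), *Asl* (0.97), *Pck1* (0.79), *Cps1* (0.57) and *Arg1* (0.43). None of the 6 passed the adjusted threshold in edgeR, and all but *Mfsd2a* were named after their values were seen. The median log2 fold change was 0.09, with 11 higher and 9 lower. *Aldh1b1*, a mitochondrial aldehyde dehydrogenase, was between 58.0 and 95.7 CPM in NCACS and between 26.0 and 56.3 CPM in CACS livers (log2 fold change -0.94, adjusted p = 0.0298 in edgeR). Its call was kept in 5 of the 10 fits that each left out a mouse and lost without NCACS mice 11, 13 or 14 or CACS mice 16 or 19 (adjusted p up to 0.0678 in edgeR). *Mfsd2a*, a lysophospholipid transporter, had the highest estimate (1.74, adjusted p = 0.107 in edgeR), with levels from 11.7 to 100 CPM in NCACS and from 97.1 to 322 CPM in CACS livers. *Gls2*, the periportal glutaminase gene, was at a log2 fold change of 0.06 (adjusted p = 0.905 in edgeR) and was named after its values were seen.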

How the data were processed

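Whole liver RNA of 10 male KL mice, 5 per group, was sequenced as single-end stranded poly(A) libraries. Per the submitters' processing notes and the methods, the authors aligned reads to GRCm38 with STAR 2.4.1d and counted them per gene with HTSeq 0.6.1, and they deposited raw counts per Ensembl gene without normalization. The annotation release and strand setting are not given in the sources used here, so reads of overlapping antisense genes are uncertain. Such genes overlap *Glul*, *Slc1a2*, *Axin2* and *Tbx3*, with at most 32, 6, 3 and 13 counts per liver, against at least 16379, 3778, 138 and 621 for these genes. Symbols, coordinates and exon lengths came from GENCODE M21, which lacks 1081 of the identifiers.

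From the deposited counts, genes kept by filterByExpr entered the quasi-likelihood F test of edgeR 4.0.16 (R 4.3.3) with TMM factors and Benjamini-Hochberg adjustment over 14143 genes. Log2 CPM used a prior count of 2. Single genes were also tested by exact permutation over 252 assignments. Groups, mouse numbers and weight changes came from the sample labels, which name no batch. The 10 genes and all lists were chosen with earlier results of these data known. Beside the 10 genes, each list's genes past the threshold and its highest and lowest estimates were named, and for each of the 10 genes the tested genes with the nearest profiles. The alternatives were DESeq2 1.42.0, limma-voom (limma 3.58.1), RLE factors or raw library totals in place of TMM, testing every gene or those with at least 10 counts in each liver, and leaving out each mouse. The scripts were tested on simulated data. No pair of livers of a group was a duplicate (chi-square per degree of freedom at least 46.1). Each liver came from a separate mouse. The methods mention a batch correction, which was not repeated here. One engineered allele and 1 gene with a near profile are not reported here.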

Additional observations from a re-analysis of the deposited data

Results flagged for a closer look

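Each group of 5 livers was examined for a liver far from the others in log2 CPM, in 56 combinations of a gene and a group, of which 5 passed Dixon's critical value of 0.71, where chance gives about 1 in 20. *Axin2* was low in CACS mouse 18 (gap over range 0.781), at 4.50 CPM against 7.52 CPM in the next CACS liver. *Wnt5b* was low in CACS mouse 17 (0.719), at 4.17 against 8.95 CPM. *Cyp2c37* was high in CACS mouse 20 (0.798), at 568 against 356 CPM. In NCACS mouse 15, *Ccnd1* (0.749) was low at 6.51 against 21.8 CPM and *Tnfrsf19* (0.808) was low at 2.81 against 4.53 CPM.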

How the results depend on the processing

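No paired analysis was possible because no mouse number occurs in both groups. Below, the cause of each change was not tested. Fits without a mouse have fewer samples, and the setting with no filter tests more genes. Of the 10 genes, 1 passed the threshold, against 2 with DESeq2 (*Rhbg* and *Lgr5*), 0 with raw library totals and 0 to 1 with each mouse left out. An exact permutation p under 0.05 was found for 2 of the 10 genes, beside 19.97% of all genes tested. With each mouse left out the 2 genes became 1 (*Lgr5*) to 3 (with *Rhbg* and *Rnf43*, without CACS mouse 20), settings chosen after seeing the data. Other pericentral genes passing (2) became 5 with DESeq2, 1 with no filter and 0 to 1 with each mouse left out. Other Wnt targets (0) became 1 with DESeq2 and 0 to 1 with each mouse left out. Wnt pathway genes (3) became 5 with DESeq2 and 0 (without NCACS mouse 11) to 2 with each mouse left out. Glutamine, ornithine and ammonia genes (0) became 2 with DESeq2 and 0 to 1 with each mouse left out. Periportal genes (1) became 2 with DESeq2 and 0 to 2 with each mouse left out. Other alternatives left these counts within 1.5 times. Over all genes tested, DESeq2 called 1386 against 538 in edgeR's test, and edgeR called 178 (without NCACS mouse 11) to 519 (without CACS mouse 17) with each mouse left out. *Glul* changed sign in 3 of those fits, with log2 fold changes from -0.0497 to 0.0440, and the other 9 genes kept their direction under every alternative. Counting error limits *Rhbg*, with at least 20 counts per liver, most.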

Other observations

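Across the lists, 9 further genes passed the threshold in DESeq2 and not in edgeR, and are named here after their values were seen. Over all genes DESeq2 called 10% and edgeR 3.80%. With 1 mouse left out, edgeR also called *Cyp1a2* (without NCACS mouse 13), *Lect2* (without NCACS mouse 15), *Aldh1a1* and *Got1* (without CACS mouse 18), *Ccnd1* (without NCACS mouse 15) and *Asl* (without CACS mouse 17). Among pericentral genes, *Cyp1a2*, a cytochrome P450 that metabolizes caffeine, was at a log2 fold change of -0.55 in edgeR (adjusted p = 0.0774, and 0.0108 in DESeq2, up to 0.158 over all alternatives). *Lect2*, a secreted protein known as a β-catenin target in hepatocytes, was at -0.53 (adjusted p = 0.0598 in edgeR and 0.0113 in DESeq2, up to 0.127 over all alternatives). Among periportal genes, the urea cycle enzyme gene *Asl* was at 0.97 (adjusted p = 0.0581 in edgeR and 0.00456 in DESeq2, up to 0.111 over all alternatives). The ligand gene *Wnt2b* was at 0.63 (0.103 in edgeR and 0.0378 in DESeq2, up to 0.214 over all alternatives) and the kinase gene *Gsk3a* at 0.23 (0.0857 and 0.0208, up to 0.221). The glutamine transporter gene *Slc38a2* was at 1.01 (0.123 in edgeR and 0.0336 in DESeq2, up to 0.198 over all alternatives). The remaining 3, *Aldh1a1*, *Ccnd1* and *Got1*, are described above.

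Of the markers of other cell types, *Cdh13*, an endothelial cadherin, was between 0.498 and 1.30 CPM in NCACS and between 1.57 and 2.17 CPM in CACS livers (log2 fold change 1.04, adjusted p = 0.0450 in edgeR, up to 0.0974 with a mouse left out). *Cd5l*, a Kupffer cell gene, was between 54.3 and 98.9 CPM in NCACS and between 27.4 and 51.5 CPM in CACS livers (-0.90, adjusted p = 0.0374 in edgeR, up to 0.0862 with a mouse left out). The surfactant gene *Sftpa1* was between 1.26 and 1.54 CPM in NCACS and between 1.72 and 5.64 CPM in CACS livers (1.27, adjusted p = 0.0323 in edgeR, up to 0.0681 with a mouse left out), while *Sftpc*, another surfactant gene, was at 0.44 (adjusted p = 0.836 in edgeR). *Scgb1a1*, the third tested of 5 lung epithelium markers, was lower, at -0.97 (adjusted p = 0.670 in edgeR). The 5 markers summed to 1.63 to 5.75 CPM in NCACS and 1.83 to 8.71 CPM in CACS livers, so the groups overlapped.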
